A study of Rattus norvegicus with 9 samples.

Results

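H19, RGD1566401 (the name that the count table uses for Meg3), Plagl1, Peg3, Dlk1, Mest, Grb10, Cdkn1c and Ndn are imprinted genes that act in fetal growth. They were taken by name from the count table, where they are 9 of 17337 genes. The choice was made with earlier results of these data known. All 9 were among the 11337 genes that had enough counts to be tested. The RNA came from rat cardiac fibroblasts, the connective tissue cells that lay down the matrix of the heart, isolated from the Sprague Dawley strain at 3 ages. The fetal cells were from embryonic day 18, the neonatal cells from postnatal day 1 and the adult cells from rats of 7 weeks, with 3 libraries per age. Every culture was at passage 0 and had been grown to confluency in DMEM with serum, antibiotics and ascorbic acid, so the values are those of cultured cells and not of cells in the heart. The labels name no sort and do not say whether libraries of 1 age came from separate animals, so the p-values below measure only the spread between these libraries, which may be technical.

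An imprinted gene is expressed mainly from the copy inherited from 1 parent, as set by DNA methylation laid down in the germ line. Many genes of this kind control growth before birth and are switched down in most tissues as postnatal growth slows. In rodents, H19, Meg3, Grb10 and Cdkn1c are known as expressed mainly from the maternal copy in most tissues, and Plagl1, Peg3, Dlk1, Mest and Ndn from the paternal copy. Plagl1 encodes a zinc finger transcription factor known to act on other imprinted genes. RNA counts of this kind do not separate the parental copies, so parental expression was not measured here.

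The fetal and neonatal libraries held between 16241217 and 22850491 assigned counts, and the adult libraries between 13392825 and 13810825. Of the 10 fibroblast markers, none was at or under 3 counts in every library of any age. Their summed level was 26495 to 53252 counts per 1000000 (CPM, scaled by TMM) in fetal cultures, 70675 to 76919 in neonatal and 26667 to 34608 in adult libraries. Col1a1 and Col3a1 were the largest parts of these sums, whereas Col1a2 stood at only 0.0531 to 0.976 CPM over the 9 libraries. Of the 10, 5 were higher and 2 lower in every adult than in every fetal library. Fetal replicate 3 stood apart from the other fetal libraries. Its chi-square per degree of freedom over genes was 90.0 and 97.3 against fetal replicates 1 and 2, compared with 3.94 between those. Pairs of neonatal libraries stood at 2.05 to 2.76 and pairs of adult libraries at 6.76 to 43.0. The ages share 1 estimate of spread per gene in the fit, so the close neonatal libraries also enter the p-values of fetal against adult. Fetal replicate 3 held the lowest fibroblast sum of the fetal libraries. Its 9 lung epithelial markers summed to 242 CPM against 3.62 and 4.41, and its epicardial or mesothelial markers to 247 CPM against 103 and 101. Cardiomyocyte markers summed to 9812 to 13963 CPM in fetal cultures, 6423 to 7096 in neonatal and 305 to 321 in adult libraries, and all 12 in the table were lower in every adult than in every fetal library. Of these 12, 4 were at or under 3 counts in every adult library. Tnnt2 alone held 303, 310 and 316 CPM of the adult sums of 305, 313 and 321 CPM. No other cardiomyocyte marker passed 1.65 CPM in an adult library. Macrophage markers summed to 6.10 to 47.8 CPM in fetal cultures, 92.8 to 101 in neonatal and 2394 to 3150 in adult libraries, and all 12 were higher in every adult than in every fetal library. These cell type differences run with age, as do the results below, and their part in those results was not tested. In bulk RNA, fewer cells of a type and less RNA per cell cannot be told apart.

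Of the 9 genes, 8 fell between the fetal and the neonatal libraries and none rose, against 18.0% of all tested genes that fell and 18.3% that rose in that comparison (36.3% in either direction). Between the neonatal and the adult libraries 7 fell and none rose, against 31.8% of all tested genes that fell and 31.6% that rose (63.5% in either direction). Between the fetal and the adult libraries 8 fell and none rose, against 35.5% and 34.9% (70.5% in either direction). Since the 9 were chosen with earlier results of these data known, these counts describe them and are no independent support. With library size as the only scaling, 71.0% of all calls around birth were falls in place of 49.6%, and the counts of members called were the same. From fetal to adult H19 fell to 0.102% of its fetal level, and Meg3 went from 27.1 CPM to no count in any adult library. Ndn passed the threshold in no comparison, and Cdkn1c had its lowest mean in the neonatal libraries. Without fetal replicate 3 the counts were 8, 7 and 7 of 9 in these 3 comparisons, the gene lost from fetal against adult being Cdkn1c.

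**Figure D1:**
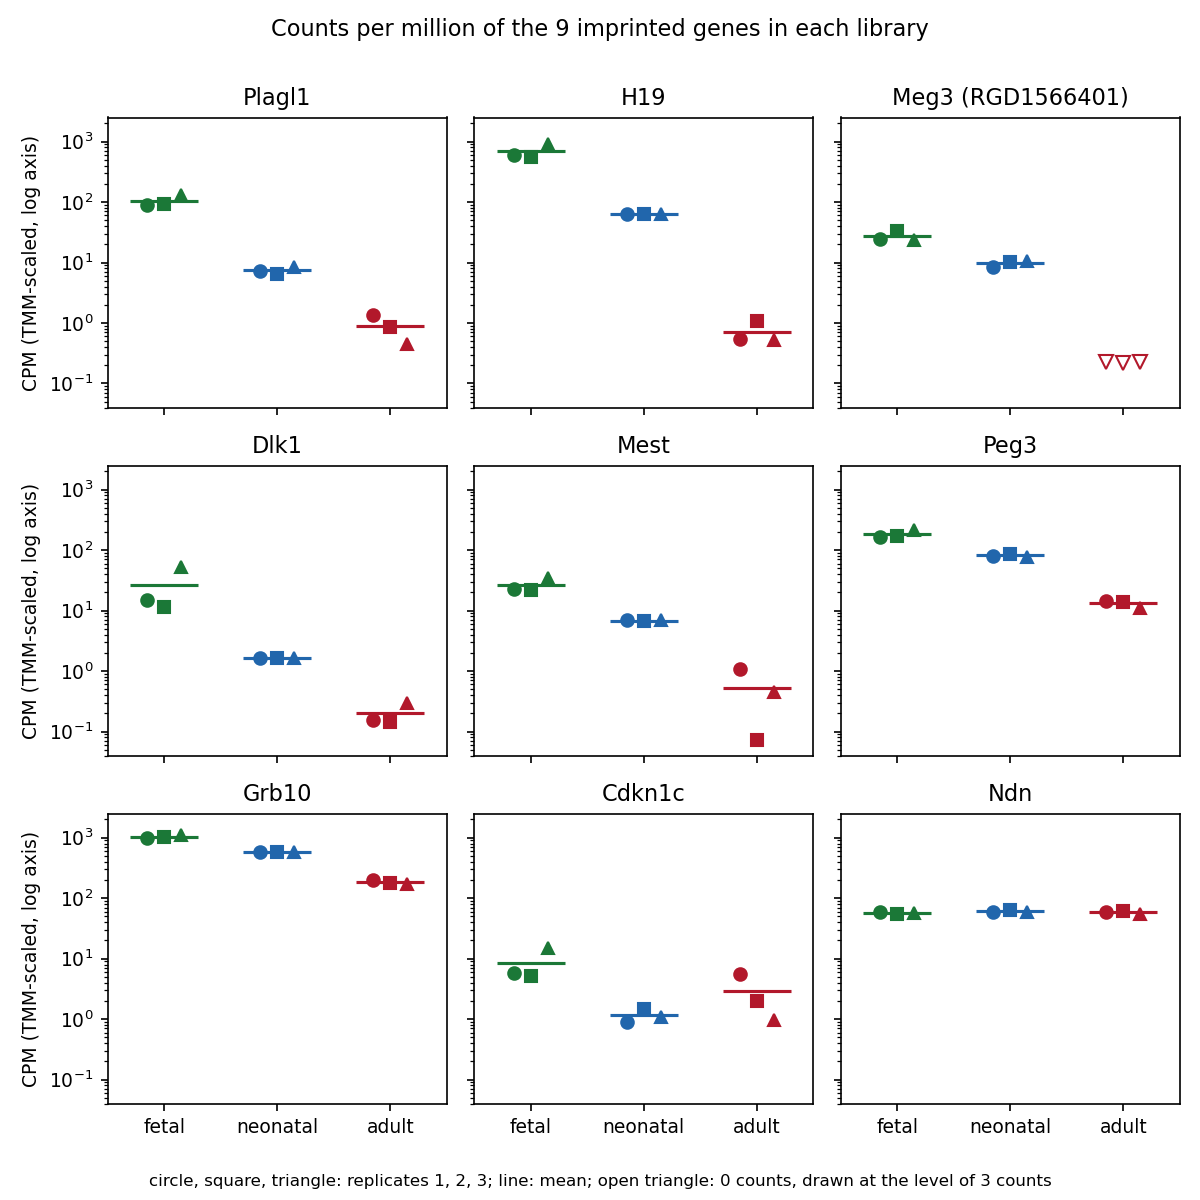
Abundance of the 9 imprinted genes in each library in TMM-scaled CPM, on a log axis, with 1 panel per gene, ages along the x axis, lines at the mean and symbols for replicates 1, 2 and 3 (open triangles mark 0 counts, drawn at the level of 3 counts). H19 runs from 566 to 921 CPM in the fetal libraries to 0.524 to 1.08 in the adult ones, while Ndn stays between 54.0 and 63.9 CPM in all 9.

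H19 is a long noncoding RNA that lies beside Igf2 and shares control regions with it. On rn6 it occupies chr1:215744404-215747080 on the minus strand, in 5 exon blocks of 2325 bases. It stood at 608, 566 and 921 CPM in fetal replicates 1, 2 and 3. The neonatal libraries held 63.6, 63.6 and 64.5 CPM, and the adult libraries 0.536, 1.08 and 0.524 CPM. Fetal replicate 3 was the highest, the neonatal libraries lay close together, and no library of 1 age overlapped those of another. H19 fell around birth (log2 fold change -3.45, SE 0.199, edgeR adjusted p = 1.09e-05) and again from the neonatal to the adult libraries (-6.46, SE 0.291, edgeR adjusted p = 2.42e-07). The adult value rests on 29 counts against 41414 in the fetal libraries, a ratio of 958 (95% exact interval 667 to 1431, for counting error only). An H19 exon also holds the gene of the microRNA miR-675, 84 bases long, and Mir675 is listed at 0 counts in all 9 libraries. By the default of featureCounts, the counting program, a read that overlaps both genes is assigned to neither. The mature microRNAs of that stretch are shown here because they are made from H19 RNA but reads over them would not be counted for it under that default. They are from RefSeq on GRCr8, minus strand, with the seed (bases 2 to 8) in capitals.
rno-miR-675-5p (chr1:207161800-207161821): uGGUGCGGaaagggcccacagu
rno-miR-675-3p (chr1:207161766-207161786): uGUAUGCCcuaaccgcucagu

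Igf2 encodes a fetal growth factor, and lies 81.0 kb from H19. It stood at 373 ± 157 CPM in fetal cultures, 38.1 ± 0.554 in neonatal and 2.56 ± 0.217 in adult libraries (SD, n = 3 each). It fell in both steps, with log2 fold changes of -3.29 (edgeR adjusted p = 5.95e-05) and -3.89 (edgeR adjusted p = 1.11e-05). From fetal to adult the log2 fold change of Igf2 was -7.18 (edgeR adjusted p = 2.44e-07) and that of H19 -9.91 (SE 0.301, edgeR adjusted p = 1.51e-08). The difference between the 2 genes was not tested. The fetal spread of Igf2 was wide, like that of H19.

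Meg3 is a long noncoding RNA of the Dlk1 domain, at chr6:133658937-133691129 on the plus strand of rn6, with 9 exon blocks of 1889 bases. It was the only one of the 9 with no count in any adult library. Its fetal values were 24.1, 33.5 and 23.7 CPM, its neonatal values 8.59, 10.1 and 10.6 CPM, and its adult counts were 0, 0 and 0. The fetal and neonatal libraries did not overlap (log2 fold change -1.48, SE 0.175, edgeR adjusted p = 0.000964). A count of 0 allows up to 3 counts per library, or 0.224 CPM as the mean of the adult libraries. Against that floor the adult level was at least 43.6-fold lower than the neonatal (edgeR adjusted p = 2.94e-06) and at least 121-fold lower than the fetal level (edgeR adjusted p = 4.79e-07). Fetal replicate 3 was not high for Meg3. The microRNA Mir770, which lies in a Meg3 intron, had 2 counts in all over the 9 libraries.

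Dlk1 encodes a transmembrane protein with EGF-like repeats that is known for holding back the maturation of fat cells, and it begins the same domain, 75.2 kb from Meg3, at chr6:133576568-133583748 on the plus strand of rn6 (1538 exon bases). It stood at 15.2, 11.3 and 53.1 CPM in fetal cultures, 1.65, 1.63 and 1.62 in neonatal and 0.153, 0.144 and 0.300 in adult libraries. The ages did not overlap, but fetal replicate 3 was 4.01 times the mean of the other fetal libraries. Dlk1 fell around birth (log2 fold change -4.01, SE 0.602, edgeR adjusted p = 0.00153). Without fetal replicate 3 this log2 fold change was -3.01 (edgeR adjusted p = 8.49e-07), and that from fetal to adult was -6.01 in place of -7.01. The adult libraries held 2, 2 and 4 counts, 8 in all. The later fall (log2 fold change -2.99, SE 1.03, edgeR adjusted p = 0.0309) lost its call when any 1 neonatal or adult library was left out (edgeR adjusted p from 0.0511 to 0.0941). From the counts alone, the neonatal level was 8.22 times the adult level (95% exact interval 3.996 to 19.6, for counting error only).

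The promoters of both genes of this domain are shown because the genes lie 75.2 kb apart and both fell in both steps. The runs are the 250 bases before the RefSeq start of each gene on GRCr8, plus strand, a different build from that of the counts. Capitals mark CpG, the dinucleotide that carries DNA methylation in mammals.
Dlk1 (chr6:134192347-134192596): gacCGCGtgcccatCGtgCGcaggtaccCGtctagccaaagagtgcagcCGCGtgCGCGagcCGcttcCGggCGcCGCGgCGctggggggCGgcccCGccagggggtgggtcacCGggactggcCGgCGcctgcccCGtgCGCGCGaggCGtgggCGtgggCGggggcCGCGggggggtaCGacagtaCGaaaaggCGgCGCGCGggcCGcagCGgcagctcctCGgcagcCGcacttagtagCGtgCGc
Meg3 (chr6:134273806-134274055): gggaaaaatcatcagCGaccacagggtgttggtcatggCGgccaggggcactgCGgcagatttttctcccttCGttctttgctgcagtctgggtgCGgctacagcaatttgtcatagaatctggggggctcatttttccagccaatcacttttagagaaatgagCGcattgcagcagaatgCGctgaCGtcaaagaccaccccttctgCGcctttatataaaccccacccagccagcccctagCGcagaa
The Dlk1 run holds 41 CpG and the Meg3 run 10. The Meg3 run also has 2 matches to TATAAA, the core promoter motif called the TATA box, 1 on each strand within the stretch tttatataaa, and the Dlk1 run has none. Of all 33469 rat promoter windows of 300 bases, 14.2% hold this motif on either strand.

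Plagl1, the zinc finger transcription factor, fell in both steps. It lies at chr1:7219587-7259536 on the plus strand of rn6, in 8 exon blocks of 4850 bases. Its fetal values were 89.3, 91.7 and 129 CPM. The neonatal values were 7.27, 6.51 and 8.48 CPM and the adult values 1.38, 0.867 and 0.449 CPM. The 3 ages did not overlap. The log2 fold change was -3.81 around birth (SE 0.215, edgeR adjusted p = 1.09e-05) and -3.03 afterwards (SE 0.316, edgeR adjusted p = 3.60e-05), which left 7.17% of the fetal level in neonatal and 0.868% in adult libraries.

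Peg3 encodes a large protein with many zinc fingers. At chr1:70210849-70237450 on the plus strand of rn6, its 9 exon blocks cover 8683 bases, of which 932 are shared with the antisense gene Apeg3. Apeg3 is listed at 0 counts in all 9 libraries, and by the same default reads over both genes are assigned to neither. Peg3 stood at 166, 174 and 216 CPM in fetal cultures, 79.9, 87.3 and 78.1 in neonatal and 14.2, 14.0 and 11.2 in adult libraries. It kept 44.2% of its fetal level in neonatal and 7.08% in adult libraries. The log2 fold change was -1.18 around birth (SE 0.117, edgeR adjusted p = 0.000142) and -2.64 after it (SE 0.130, edgeR adjusted p = 3.26e-07). No library of 1 age overlapped those of another.

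Mest encodes a predicted hydrolase of the endoplasmic reticulum. At chr4:58052786-58063231 on the plus strand of rn6, its exons cover 1341 bases. It stood at 22.6, 22.2 and 35.01 CPM in fetal cultures, 6.94, 6.74 and 6.86 in neonatal and 1.07, 0.0722 and 0.449 in adult libraries, the adult counts being 14, 1 and 6. The adult libraries spread widely, from 1 count to 14, but all lay under every neonatal library. Mest fell around birth (log2 fold change -1.96, SE 0.317, edgeR adjusted p = 0.00193) and afterwards (-3.69, SE 0.466, edgeR adjusted p = 0.000118). The later log2 fold change was -4.69 with adult replicate 1 left out and -3.17 with adult replicate 2 left out, and both were called. From the counts alone, the neonatal level was 13.1 times the adult level (95% exact interval 8.45 to 21.4, for counting error only).

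Grb10 encodes an adaptor that binds the insulin and IGF1 receptors and dampens their signal. It lies at chr14:92021851-92117923 on the minus strand of rn6, in 18 exon blocks of 4996 bases. Its fetal values were 1004, 1019 and 1088 CPM, its neonatal values 576, 586 and 582 CPM and its adult values 202, 179 and 169 CPM. The ages did not overlap, and the spread within each age was small. Grb10 fell around birth (log2 fold change -0.83, SE 0.0793, edgeR adjusted p = 0.000111) and afterwards (-1.66, SE 0.0812, edgeR adjusted p = 3.13e-07). The adult libraries kept 17.7% of the fetal level.

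Cdkn1c encodes an inhibitor of cyclin-dependent kinases that halts the cell cycle in many fetal tissues. It lies at chr1:216661067-216663721 on the minus strand of rn6, 914 kb from H19, with 2055 exon bases. It stood at 5.78, 5.07 and 14.98 CPM in fetal cultures, 0.881, 1.49 and 1.10 in neonatal and 5.66, 2.02 and 0.974 in adult libraries. The fetal and neonatal libraries did not overlap, whereas the adult libraries spread more widely than the neonatal ones, overlapped them and reached into the fetal range. Fetal replicate 3 was 2.76 times the mean of the other fetal libraries. Cdkn1c fell around birth (log2 fold change -2.87, SE 0.655, edgeR adjusted p = 0.00982), and did so without fetal replicate 3 (-2.20, edgeR adjusted p = 0.0170). Its adult level did not differ from the neonatal one past the threshold (log2 fold change 1.30, 95% interval -0.25 to 2.85, edgeR adjusted p = 0.127). This difference passed the threshold only when adult replicate 3 was left out (1.71, edgeR adjusted p = 0.0456), and was 0.36 without adult replicate 1. Its adult level was lower than the fetal one (log2 fold change -1.58, SE 0.612, edgeR adjusted p = 0.0435), but that call did not hold up. It was lost without fetal replicate 3 (-0.92, edgeR adjusted p = 0.154), without adult replicate 2 (edgeR adjusted p = 0.130), without adult replicate 3 (edgeR adjusted p = 0.113) and without any 1 neonatal library (edgeR adjusted p from 0.0582 to 0.0616). Without adult replicate 1 the difference was larger (-2.51, edgeR adjusted p = 0.00514). The adult libraries spanned a 5.82-fold range for this gene.

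Ndn encodes necdin, a MAGE family protein known for holding back growth in neurons. It lies at chr1:122981755-122983354 on the plus strand of rn6, in 1 exon of 1600 bases. It stood at 58.9, 54.0 and 57.0 CPM in fetal cultures, 60.1, 63.9 and 59.6 in neonatal and 58.4, 62.0 and 54.4 in adult libraries. The neonatal values all lay just above the fetal values, and the adult values overlapped both. No comparison called it (log2 fold change 0.11, 95% interval -0.05 to 0.27, for neonatal against fetal, -0.07, -0.23 to 0.09, for adult against neonatal, and 0.04, -0.12 to 0.20, for adult against fetal).

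By counts over the 9 genes, the median log2 fold change was -1.96 around birth, -2.99 from neonatal to adult and -5.65 from fetal to adult, with Meg3 at its bound where it was at 0. Over all 11337 tested genes these medians were -0.01, -0.01 and -0.01. The libraries of the later age lay wholly below those of the earlier age for 8 of 9 genes around birth, against 28.1% of all tested genes, for 7 of 9 from neonatal to adult, against 38.5%, and for 7 of 9 from fetal to adult, against 35.8%. In all, 7 of the 9 genes (H19, Plagl1, Grb10, Dlk1, Mest, Peg3 and Meg3) fell in both steps, as did 906 of all tested genes, or 7.99%. A fall of at least 1 on the log2 scale was called for 7 genes around birth (5.42% of all tested genes), 7 from neonatal to adult (12.2%) and 8 from fetal to adult (15.8%). Tested over any age at once, 8 of the 9 were called, against 77.6% of all genes, the exception being Ndn (edgeR adjusted p = 0.336). The 3 pairs of ages share libraries, so these counts are not separate pieces of evidence. Nor are they independent of the choice of the 9, which was made with earlier results of these data known.

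The sizes of the 2 steps were then compared within each gene, by the contrast of the step after birth minus the step around birth. The fall after birth was the larger one for H19 (difference in log2 fold change -3.01, SE 0.411, edgeR adjusted p = 0.000641), Peg3 (-1.46, SE 0.203, edgeR adjusted p = 0.000632) and Grb10 (-0.83, SE 0.135, edgeR adjusted p = 0.00137). For Meg3 the fold by which it fell after birth was at least 15.7 times that around birth (edgeR adjusted p = 0.000166). The adult age is also much further from birth than the fetal age, so the steps differ in duration. These 4 genes are set against 23.0% of all tested genes that were lower by this contrast, and 42.4% called in either direction. Cdkn1c went the other way (4.17, SE 1.22, edgeR adjusted p = 0.0230), as did 19.4% of all tested genes. That call was lost without any 1 neonatal library (edgeR adjusted p from 0.0616 to 0.0909). For Plagl1 (0.77, 95% interval -0.32 to 1.87), Dlk1 (1.02, -2.75 to 4.80), Mest (-1.73, -3.25 to -0.22) and Ndn (-0.18, -0.46 to 0.09) the difference did not pass the threshold after adjustment. The Dlk1 difference was 0.014 without fetal replicate 3. The Mest difference did pass it without fetal replicate 3 (-1.99, edgeR adjusted p = 0.00976) and without adult replicate 1 (-2.74, edgeR adjusted p = 0.0108). It also passed in DESeq2 with all 9 libraries (-1.72, DESeq2 Wald adjusted p = 0.00983). Of the whole log2 fall from fetal to adult, 57.3% came around birth for Dlk1, with fetal replicate 3 included, and 55.6% for Plagl1, against 34.8% for H19, 34.6% for Mest, 33.4% for Grb10 and 30.9% for Peg3.

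**Figure D2:**
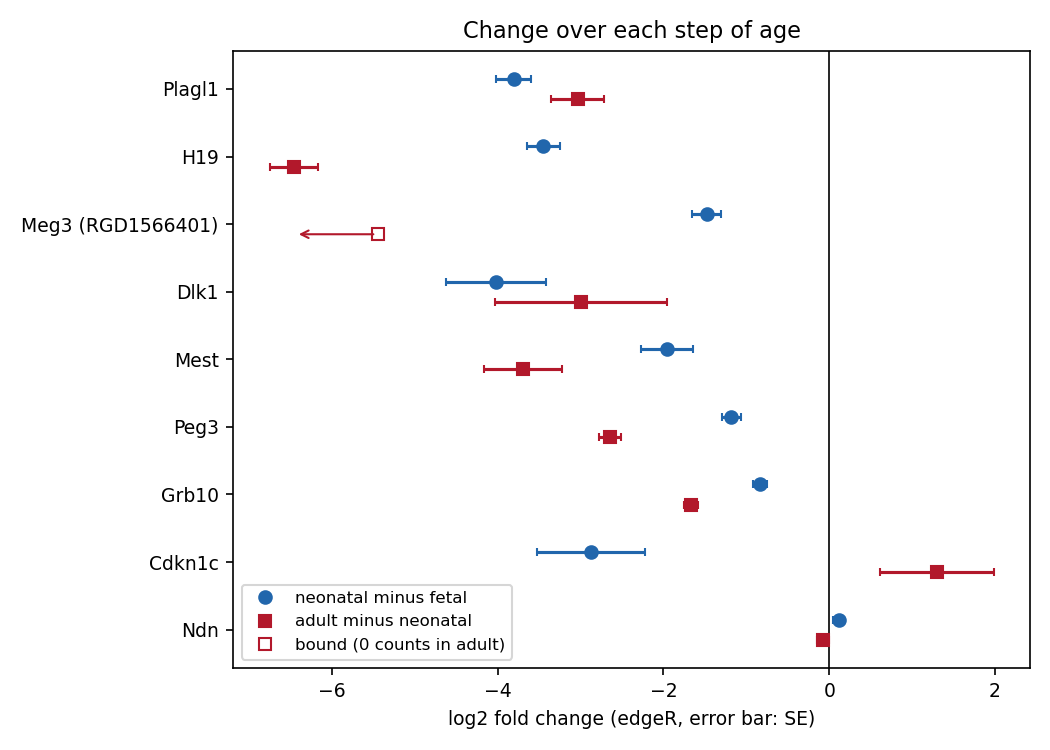
Log2 fold change of each gene around birth (neonatal against fetal) and after birth (adult against neonatal), with bars of 1 standard error from the edgeR fit; the arrow marks Meg3 after birth, which is a bound because no adult library held a count. H19 reaches -6.46 after birth against -3.45 around it, and both Ndn values lie next to 0.

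The order of the genes by level was read per length of exon, in transcripts per 1000000 (TPM). In the fetal libraries H19 led at 687 ± 216 TPM, above Grb10 at 473 ± 36.9 TPM (SD, n = 3), and their libraries did not overlap. Ndn followed at 80.5 TPM, and Plagl1, Peg3, Mest, Dlk1 and Meg3 lay between 48.8 and 32.6 TPM. Neighbours among these 5 overlapped in their libraries, so their order is not resolved. Cdkn1c was lowest by mean at 9.67 TPM. Fetal Dlk1, at 16.6 to 81.6 TPM, also overlapped Ndn, at 75.9 to 84.1 TPM, and Cdkn1c, at 5.55 to 17.2 TPM. In the neonatal libraries Grb10 led at 246 TPM, then Ndn at 80.8 TPM and H19 at 58.1 TPM, and the lowest 3 were Plagl1, Dlk1 and Cdkn1c at 3.23, 2.24 and 1.19 TPM. Meg3 at 10.9 TPM and Mest at 10.8 TPM overlapped, and the other neighbours in the neonatal order did not. In the adult libraries Grb10 at 67.7 TPM and Ndn at 67.2 TPM overlapped at the top. Peg3 at 2.79 TPM and Cdkn1c at 2.56 TPM came next and overlapped, and Mest, H19, Plagl1 and Dlk1 stood between 0.720 and 0.239 TPM with overlapping libraries. Adult Cdkn1c, at 0.878 to 4.96 TPM, also overlapped Mest, at 0.102 to 1.44 TPM. By mean, H19 moved from the first place of 9 in the fetal to the sixth in the adult libraries, while Ndn moved from the third to the second. With these overlaps, the adult places of both and the fetal place of Ndn are not resolved.

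Genes around the 9 were examined next, since imprinted genes lie in clusters. Within 500 kb of a member on rn6, 43 other genes were tested. Of these, 10 fell around birth (23.3%, 95% exact interval 11.8 to 38.6), 16 from neonatal to adult (37.2%) and 17 from fetal to adult (39.5%), close to the shares of all tested genes, 18.0%, 31.8% and 35.5%. Another 8, 10 and 10 rose in the 3 comparisons. The exact intervals of these shares take the genes as independent, although they lie in clusters and were measured in the same 9 libraries. Of the 15 genes within 100 kb, 10 fell from fetal to adult (66.7%, 95% exact interval 38.4 to 88.2) and 2 rose. Around birth 6 of the 15 fell (40.0%, 16.3 to 67.7), and from neonatal to adult 7 (46.7%, 21.3 to 73.4). Of those that fell from fetal to adult, Igf2, Ddc, Copg2, Zim1, Kcnq1 and Nap1l4 are also on the list of other imprinted genes below. Slc22a18, which rose, is on it too. That list was chosen with earlier results of these data known. No tested gene other than the members lay within 500 kb of Dlk1 and Meg3. The genes named in the rest of this paragraph were chosen after their values were seen. Ddc, an enzyme of amine synthesis that lies 25.1 kb from Grb10, fell from 28.1 ± 1.54 CPM in the fetal to 8.57 ± 0.654 in the neonatal libraries (SD, n = 3) and had no count in the adult ones, at least 126-fold lower than fetal (edgeR adjusted p = 6.57e-08). Kcnq1, a cardiac potassium channel gene 30.7 kb from Cdkn1c, fell (log2 fold change -6.10). Its adult mean of 0.197 ± 0.188 CPM lay under the floor of 0.224 CPM, so the size of that fall is uncertain. Slc22a18, a transporter gene 13.7 kb from Cdkn1c, rose (3.66, edgeR adjusted p = 7.21e-07). Copg2, a coat protein gene 1.16 kb from Mest, fell by little (log2 fold change -0.18, edgeR adjusted p = 0.0242). Ctsd, a lysosomal protease gene near H19, and Ikzf1, a lymphoid and myeloid transcription factor gene near Grb10, rose (log2 fold changes 3.82 and 5.01). The fetal mean of Ikzf1 was only 0.281 ± 0.401 CPM. Macrophage markers rose across the same libraries, from 6.10 to 47.8 CPM in the fetal to 2394 to 3150 CPM in the adult ones. Their part in the rise of Ctsd and Ikzf1 was not tested.

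**Figure D3:**
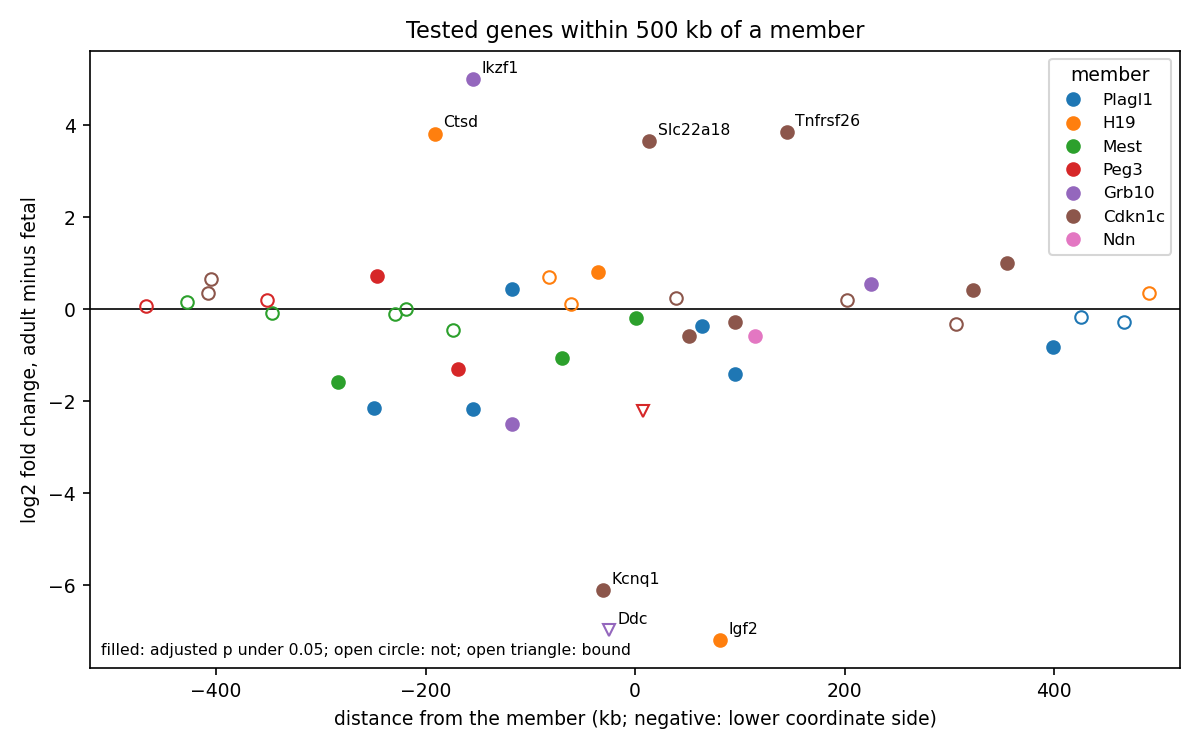
Log2 fold change from fetal to adult of tested genes within 500 kb of a member, against distance from the member in kb (negative on the lower coordinate side), coloured by member, filled where called and as an open triangle where the value is a bound. Of the 43 neighbours 17 were called lower and 10 higher, and Igf2 (-7.18), Ddc and Kcnq1 lie lowest.

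The list of other imprinted genes, known as imprinted in at least some mammals or tissues, held 61 names, of which 51 were in the count table and 43 were tested. Like the members, this and the next 3 lists were chosen with earlier results of these data known. Around birth 11 of the 43 other imprinted genes fell, 7 rose and 25 were not called, with a median log2 fold change of -0.07. From neonatal to adult 21 fell and 8 rose, with a median of -0.44, and from fetal to adult 19 fell and 12 rose, with a median of -0.26. Over all tested genes the shares that fell in the 3 comparisons were 18.0%, 31.8% and 35.5%, the shares that rose 18.3%, 31.6% and 34.9%, and each median -0.01, and the counts of this and the next 3 lists are to be read against these. The 3 with the smallest adjusted p among those that fell from fetal to adult were Ddc, Igf2 and Slc38a4, an amino acid transporter gene at 90.6 ± 25.8, 39.5 ± 2.03 and 7.58 ± 0.508 CPM at the 3 ages in order (SD, n = 3; log2 fold change -3.58, edgeR adjusted p = 7.53e-07). The 3 with the smallest adjusted p among the 12 that rose were Pon2, which encodes an enzyme of the paraoxonase family, Slc22a18 and Tfpi2, a protease inhibitor gene. Pon2 went from 70.2 ± 7.62 to 133 ± 3.55 and 225 ± 20.1 CPM (log2 fold change from fetal to adult 1.68, edgeR adjusted p = 4.36e-07). Tfpi2 stood at 4.70 ± 1.59, 1.57 ± 0.233 and 25.2 ± 5.44 CPM (2.41, edgeR adjusted p = 2.97e-05).

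Close relatives of the members were followed as well. Of 12 names, 11 were in the table and 9 were tested (Grb7 and Dlk2 had too few counts). Of the 9, 2 fell and none rose around birth, 5 fell and 2 rose from neonatal to adult, and 5 fell and none rose from fetal to adult. Over all tested genes 18.0%, 31.8% and 35.5% fell. Without fetal replicate 3 the count that fell around birth was 5, and 1 rose from fetal to adult. Plag1, a zinc finger relative of Plagl1, went from 12.4 ± 2.96 to 6.64 ± 0.634 and 0.222 ± 0.0680 CPM (SD, n = 3; log2 fold change from fetal to adult -5.75, edgeR adjusted p = 3.31e-07), while Plagl2 did not pass (0.00, edgeR adjusted p = 0.982). The adult mean of Plag1 lay at the floor of 0.224 CPM, so the size of its fall is uncertain. Grb14, the receptor adaptor related to Grb10, fell from 47.3 ± 14.8 to 7.01 ± 2.39 CPM (-2.75, edgeR adjusted p = 3.00e-05). Of the kinase inhibitors related to Cdkn1c, Cdkn1a fell around birth (-0.59, edgeR adjusted p = 0.0375) and rose afterwards (0.87, edgeR adjusted p = 0.00314), and Cdkn1b was called in no comparison. Of the MAGE family relatives of Ndn, Maged1 (-1.14), Maged2 (-1.54) and Mageh1 (-0.73) fell from fetal to adult (edgeR adjusted p = 5.71e-06, 3.46e-05 and 0.00254). Ndnl2 did not (0.26, edgeR adjusted p = 0.210).

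The pathway that Grb10 damps was covered by 29 insulin and IGF signalling genes, all tested. Around birth 3 fell and 3 rose, from neonatal to adult 15 fell and 3 rose, and from fetal to adult 14 fell and 6 rose, with a median log2 fold change of -0.24. Over all tested genes 18.0%, 31.8% and 35.5% fell and 18.3%, 31.6% and 34.9% rose. With library size as the only scaling 9 fell around birth, and without fetal replicate 3 the number was 5. Igf1r, which encodes the receptor of IGF1 and IGF2, stood at 76.4 ± 7.12 CPM in the fetal and 65.5 ± 4.41 in the neonatal libraries and at 23.6 ± 3.48 CPM in the adult ones (SD, n = 3; log2 fold change from fetal to adult -1.69, edgeR adjusted p = 1.75e-06). Nedd4, a ubiquitin ligase gene that acts on this receptor pathway through Grb10, went from 3177 ± 125 to 1388 ± 57.4 CPM (-1.20, edgeR adjusted p = 1.17e-06). Igf1 rose from 25.7 ± 7.88 to 288 ± 111 CPM (3.48, edgeR adjusted p = 1.14e-05) and Grb2 and Foxo3 rose by less (0.48 and 0.72, edgeR adjusted p = 9.49e-04 and 0.00243). The growth factors of the pathway thus went in opposite directions, Igf2 falling and Igf1 rising.

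Cdkn1c acts on the cyclins and kinases of the cell cycle, for which a list of 15 cell cycle genes was used, among them E2f1, Rb1, Mki67 and Pcna, which are neither cyclins nor kinases. Around birth 4 fell and 2 rose, from neonatal to adult 7 fell and 2 rose, and from fetal to adult 10 fell and 2 rose. Over all tested genes 18.0%, 31.8% and 35.5% fell and 18.3%, 31.6% and 34.9% rose. With library size as the only scaling the numbers that fell were 11, 4 and 11, and 1 rose around birth. Without fetal replicate 3, 3 rose around birth and 4 from fetal to adult. Cdk2 (-1.31, edgeR adjusted p = 8.61e-07), Ccnd2 (-2.30, edgeR adjusted p = 2.08e-06) and Ccna2 (-1.13, edgeR adjusted p = 3.97e-04) fell from fetal to adult. Ccnd1, which encodes cyclin D1, rose (0.92, edgeR adjusted p = 3.23e-05), from 218 ± 34.4 to 413 ± 16.2 CPM (SD, n = 3), as did Rb1, the retinoblastoma gene that restrains entry into the cycle (0.48, edgeR adjusted p = 0.00170).

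**Figure D4:**
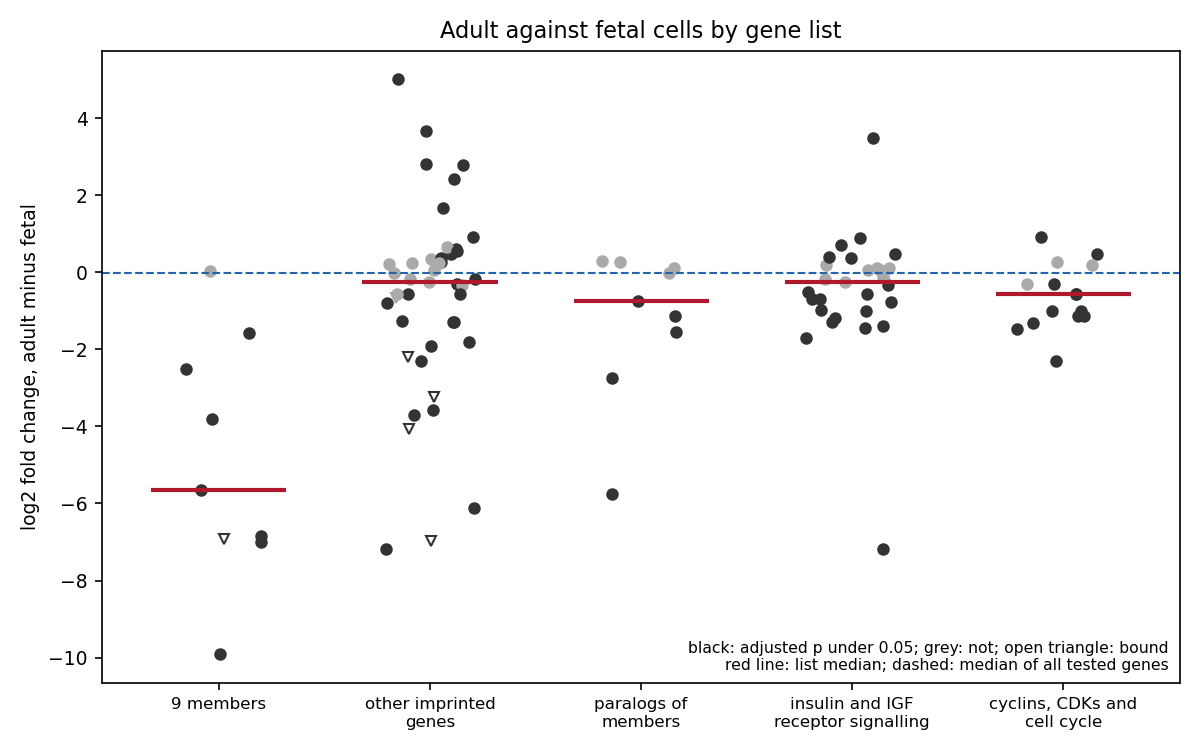
Log2 fold change from fetal to adult of each tested gene in the 5 gene lists (members, other imprinted genes, paralogs, insulin and IGF signalling, cyclins, kinases and other cell cycle genes), in black where called, in grey where not, as an open triangle where the value is a bound, with a red line at each list's median and a dashed line at the median of all tested genes. The members have a median of -5.65, and the other lists lie between -0.24 and -0.73.

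The genes whose profile over the 9 libraries was nearest to each member were found among 8943 genes averaging 10 CPM or more in their highest age, by the root mean square difference of centred log2 CPM. Grb10 had close neighbours in profile, Mpped2 (0.108) and Cdkn2b (0.116). Ndn was nearest to Srsf9 (0.0453), Cdadc1 (0.0537) and Acly (0.0551), and Peg3 to Mybpc2 (0.170), Rrad (0.176) and Nid2 (0.180). Meg3 was nearest to Ddc (0.171), Hspb3 (0.201) and Snap91 (0.306). Meg3, Ddc and Hspb3 had no adult count, so their adult log2 CPM is the same by construction. Snap91 averaged 0.175 CPM in the adult libraries, under the floor of 0.224 CPM. H19 had no gene under 0.787, the distance of Igf2bp1, with Bmp7 at 0.798 and Unc45b at 0.864. The distance is not scaled by the size of a change. In the adult libraries Igf2bp1, Bmp7 and Unc45b averaged 0.0482, 0 and 0.0241 CPM, under the floor of 0.224 CPM, against 0.714 CPM for H19. The nearest genes of Plagl1 and Dlk1 overlapped, with Ptprq and Ctnnd2 in both sets (0.421 and 0.478, and 0.414 and 0.493), Pgm5 for Plagl1 (0.428) and Hmga2 for Dlk1 (0.485). Ptprq and Ctnnd2 had no adult count, so they match each other there by construction. Hmga2 averaged 0.0760 CPM in the adult libraries, also under the floor. Mest was nearest to Chrm2 (0.331), Klhl41 (0.555) and Krt18 (0.592), of which Krt18 averaged 0.0765 CPM in the adult libraries, under the floor. Cdkn1c, whose profile dips in the neonatal libraries, was near to Clu (0.441) and Ptgs2 (0.441). Among the members themselves, Grb10 and Peg3 were nearest to each other (0.561), followed by Plagl1 and Dlk1 (0.713). Unc45b, Klhl41, Mybpc2 and Hspb3 are muscle genes. Cardiomyocyte marker sums fell from 9812 to 13963 CPM in the fetal to 305 to 321 CPM in the adult libraries, where they were almost wholly Tnnt2. The part of cardiomyocytes in these likenesses was not tested.

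Promoter windows of 300 bases were found in RefSeq (GRCr8) for 7 of the 9 genes, and CpG number varied widely among them. Dlk1 held 45 and Grb10 44, more than in 98.3% and 98.1% of all 33469 rat windows, Plagl1 29, Mest 18, Peg3 16, Ndn 14 and Meg3 13. The median of all windows was 7, and all 7 genes exceeded it. Dlk1 and Grb10, with the most CpG, kept 0.750% and 17.7% of their fetal CPM in the adult libraries, and Ndn, which was not called, lay between Peg3 and Meg3 in CpG number. The motif GGGCGG, a binding site of the factor SP1, was found on either strand in Grb10 (5), Plagl1 (2), Dlk1 (2), Mest (1) and Ndn (1), and in 33.1% of all windows. GGGGCCCC, the core of the motif described for the zinc finger family of Plagl1, was found only in Peg3 (1), and in 0.858% of all windows. The core motif of the insulator protein CTCF was found in none of the 7, and in 0.0239% of all windows. A match describes the letters and was not tested as a bound site. The 250 bases before the start of Plagl1, which fell in both steps, and of Ndn, which was called in none, are printed for comparison, on GRCr8, plus strand, with CpG in capitals.
Plagl1 (chr1:9297214-9297463): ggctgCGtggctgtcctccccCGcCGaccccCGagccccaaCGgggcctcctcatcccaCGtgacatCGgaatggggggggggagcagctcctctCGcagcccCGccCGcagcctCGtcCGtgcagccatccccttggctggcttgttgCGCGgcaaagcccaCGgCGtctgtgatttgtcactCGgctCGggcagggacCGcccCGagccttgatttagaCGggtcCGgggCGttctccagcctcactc
Ndn (chr1:125260809-125261058): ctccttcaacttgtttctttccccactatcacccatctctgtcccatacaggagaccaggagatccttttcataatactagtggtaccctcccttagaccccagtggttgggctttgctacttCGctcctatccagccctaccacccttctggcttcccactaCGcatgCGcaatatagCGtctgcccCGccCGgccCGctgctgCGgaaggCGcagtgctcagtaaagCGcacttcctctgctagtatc
The Plagl1 run holds 23 CpG and the Ndn run 10.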

How the data were processed

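RNA of 9 cultures was sequenced, 3 per age, and grouped by the age in the labels. The authors deposited raw counts per gene, made with featureCounts 1.6.3 and an rn6 annotation per the file headers; the submitters' processing notes also name FastQC, Trimmomatic 0.39, STAR 2.5.2b, Subread 1.6.3 and DESeq2. The headers give no strand option, so antisense or overlapping genes cannot be separated. The deposited exon length per gene (another value in the same count table) was used for TPM. The deposited normalized signal of 12786 genes equalled the counts divided by 1 size factor per library, and was not used further. Of 17337 genes, 3163 had no count.

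The counts of all 9 libraries entered 1 model in edgeR 4.0.16 under R 4.3.3 (filterByExpr, TMM, robust glmQLFit and glmQLFTest, age as the only term, Benjamini-Hochberg over 11337 genes, adjusted p under 0.05), after the code was tested on simulated data. CPM is per TMM-scaled library size. Standard errors come from the fold change and F statistic, and intervals of log2 fold changes use the fit's total degrees of freedom. The floor was 3 counts per library. Exact intervals of read counts and floors cover counting error only, and those of shares of genes take the genes as independent. DESeq2 1.42.0, other scalings, no filter, a replicate block, fewer ages, a fold threshold and each library left out were alternatives. The members and gene lists were chosen with earlier results of these data known. All members were named. Of each other list, the 3 tested genes with the smallest adjusted p in each direction from fetal to adult, every relative in the table, and the 3 nearest genes in profile were named, except 2 of the nearest genes that are not reported here. The cyclin list holds only 2 that rose.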

Additional observations from a re-analysis of the deposited data

How the results depend on the processing

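H19, Plagl1, Grb10, Mest, Peg3 and Meg3 kept their direction and call from neonatal to adult and from fetal to adult under all 16 alternatives. Around birth the 8 called genes kept theirs under all 16, except Grb10 where a log2 fold change of at least 1 was also required. That requirement left 1272, 2838 and 3675 of all genes called around birth, after birth and from fetal to adult (4114, 7197 and 7987 without it). Library size alone shifted the median of all genes to -0.18 around birth and -0.12 from fetal to adult, and turned the sign of Ndn, which was called in neither case (-0.058, -0.069 and, for the difference of steps, 0.048). With 1 library left out, Ndn from fetal to adult ran from -0.0031 (without adult replicate 2) to 0.091. All genes called ran from 2476 (without neonatal replicate 2) to 4679 around birth, and from 3004 (without neonatal replicate 2) to 5885 for the difference of steps (4811 with all). Members called higher ran from 0 to 1 after birth (Cdkn1c, without adult replicate 3) and from 0 to 1 for the difference of steps (0 without any 1 neonatal library). Each such fit has fewer samples; beyond that the cause was not tested. Cdkn1c from fetal to adult also lost its call without the filter on low counts (edgeR adjusted p = 0.0505) and with only the 2 ages fitted (edgeR adjusted p = 0.0819). With only the 2 ages fitted, H19 from fetal to adult had edgeR adjusted p = 2.93e-06 in place of 1.51e-08. Among neighbours within 100 kb, 40.0% fell around birth, 46.7% from neonatal to adult and 66.7% from fetal to adult, over 15 genes. The insulin and cyclin lists moved with the scaling, as given beside them; those alternatives, and the lists without fetal replicate 3, were chosen after seeing the data.

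The replicate numbers did not pair the samples: correlations of same-numbered libraries across genes ran from -0.0649 to 0.0521. With the replicate block 3713, 6985, 7801 and 4466 genes were called around birth, after birth, from fetal to adult and for the difference of steps. Under the block 0 members were called higher for the difference of steps (Cdkn1c 4.02, edgeR adjusted p = 0.0532), and Cdkn1c from fetal to adult was not called (edgeR adjusted p = 0.0872).

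Depth limits the adult values of Dlk1, Meg3, Mest, H19 and Plagl1, which rest on 36 counts or fewer per gene in all.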
